A study of Mus musculus with 8 samples.

Results

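The genes of central nervous system myelin, Mbp, Mog, Mag, Mobp, Cnp, Mal, Opalin, Cldn11 and Aspa, were followed by name through single-nucleus RNA counts of the mouse striatum, 9 of the 32285 genes in the count matrices. All 9 were detected, and each is described over 18 annotated clusters of nuclei and over 8 inbred strains. The study profiled striatal nuclei of 32 mice with 10x Multiome, a kit that captures RNA and accessible DNA of each nucleus together, and asked how genetic background shapes both. The mice were 12 weeks old, carried no engineered allele and received no treatment that the labels name. Wild-derived strains were CAST/EiJ, PWK/PhJ and WSB/EiJ, and laboratory strains were A/J, C57BL/6, NZO/HlLtJ, 129S1/SvImJ and NOD/ShiLtJ, with 4 mice each. C57BL/6 is written C57BL/6J in one label and C57BL/6NJ in the deposited table. Each of 4 batches pooled nuclei from 1 mouse of every strain, so any free RNA of a batch was shared by nuclei of all 8 strains. Sex was balanced within batches according to the labels, but is not known per nucleus and entered no comparison.

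Myelin is the multilayered membrane that oligodendrocytes wrap around axons. In its compact part, basic proteins hold the cytoplasmic faces of the membrane together, while adhesion proteins, tight junctions and enzymes serve the inner, outer and uncompacted margins. Messenger RNAs of the basic proteins Mbp and Mobp are known to be carried out of the cell body into the myelin sheath, whereas most other myelin mRNAs are translated near the nucleus. The Mbp locus also encodes the golli transcripts, which are not restricted to oligodendrocytes, and counts per gene cannot tell them apart from the classic Mbp transcripts.

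Of 89339 barcodes, 55672 were annotated nuclei, 12066 of them in the cluster Oligodendrocyte and 15395 in the cluster Drd1+ neuron. Batches held 11826 to 15626 annotated nuclei with median depths of 3232 unique molecular identifiers (UMIs) per nucleus in batch 3 and 4593 to 4931 in the others. A mouse contributed 133 to 1011 oligodendrocyte nuclei, with 165465 to 1883033 counts. Across batches, 1517 barcode sequences occurred in annotated nuclei of more than 1 batch, which concerned 3048 nuclei. The clusters were made from expression values of these same nuclei, so markers describe the name of a cluster and do not test it. The name Oligodendrocyte fitted its markers, since the listed markers Myrf, Ermn, Ugt8a and St18 were highest in it over all clusters. Sox10, another listed marker, was at 299.9 counts per 1000000 (CPM) there and at 300.1 in the cluster Polydendrocyte/Oligodendrocyte. That smaller cluster of 488 nuclei also led in Cspg4, Vcan and Lhfpl3, 3 of 4 listed markers of oligodendrocyte precursors, while the remaining one, Pdgfra, was at 297.6 CPM there and highest in the cluster Fibroblast, at 346.7.

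Promoter sequence bears on the open-chromatin side of the assay, so the windows of 250 bases before the start site were matched to the deposited peak list. RefSeq sequence (GRCm38.p6, the build of the files) gave 10 windows for 8 of the 9 genes, and Mbp is not shown. A peak overlapped 7 windows, against 51.7% of all 32851 windows. These windows belong to 5 of the 8 genes, Mag, Cnp, Opalin, Cldn11 and Aspa, and the 3 windows of Mag lay under the same peak. Short words resembling SOX factor sites were searched on both strands, ACAAAG being one and ACAATG another. Words resembling sites of the myelin regulator MYRF were CTGGCAC and, as a variant, CTGGTAC. Of these, ACAAAG occurred in 16.5% of all windows, ACAATG in 10.7%, CTGGCAC in 4.19% and CTGGTAC in 1.83%. The 4 windows below show the adhesion gene Mag, in a window that holds both kinds of word under a peak, and 3 genes that varied between strains. Capitals mark the words found, on either strand, and the sequence reads 5′ to 3′ toward the gene.

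Mag, chr7:30914923-30915172, minus strand: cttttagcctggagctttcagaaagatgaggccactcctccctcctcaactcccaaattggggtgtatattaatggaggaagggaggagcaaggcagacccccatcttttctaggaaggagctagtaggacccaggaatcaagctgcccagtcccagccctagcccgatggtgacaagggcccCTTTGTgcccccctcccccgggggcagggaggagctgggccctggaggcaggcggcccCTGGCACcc
Mobp, chr9:120149492-120149741, plus strand: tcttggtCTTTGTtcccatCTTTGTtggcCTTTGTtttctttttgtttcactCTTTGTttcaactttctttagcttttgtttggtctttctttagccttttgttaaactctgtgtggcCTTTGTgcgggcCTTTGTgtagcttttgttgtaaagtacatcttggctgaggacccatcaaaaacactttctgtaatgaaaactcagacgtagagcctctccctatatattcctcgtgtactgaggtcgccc
Opalin, chr19:41077114-41077363, minus strand: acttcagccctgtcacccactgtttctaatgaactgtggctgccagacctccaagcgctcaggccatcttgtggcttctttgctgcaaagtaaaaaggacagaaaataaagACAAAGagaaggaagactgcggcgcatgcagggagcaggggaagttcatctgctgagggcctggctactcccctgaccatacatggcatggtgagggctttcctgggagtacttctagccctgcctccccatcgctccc
Cldn11, chr3:31149670-31149919, plus strand: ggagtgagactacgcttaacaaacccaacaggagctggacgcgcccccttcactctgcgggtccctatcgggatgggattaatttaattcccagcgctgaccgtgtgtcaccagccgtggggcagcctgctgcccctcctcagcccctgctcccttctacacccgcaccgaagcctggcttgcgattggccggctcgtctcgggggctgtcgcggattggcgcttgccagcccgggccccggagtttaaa

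The Mag window shown held ACAAAG and CTGGCAC once each and lay under a peak at chr7:30914442-30915440. Another Mag window, chr7:30914322-30914571, held none of the 4 words. The Mobp window held 6 ACAAAG words, all read on the opposite strand, and no peak overlapped it. One ACAAAG word stood in the Opalin window, under a peak at chr19:41076668-41077666. The Cldn11 window held none of the 4 words and lay under a peak at chr3:31149393-31150391. Cnp held ACAAAG and CTGGCAC once each, Mog held 1 CTGGTAC, and the windows of Mal and Aspa held none. The Aspa window and the Mag window with none of the words lie inside the outer bounds of their genes. A further Mag window and the Cnp window lie partly inside. These matches describe the reference sequence of 1 strain only, and the peak list gives positions without a level.

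All 9 genes were higher in oligodendrocyte nuclei than in Drd1+ neurons, in 32 of 32 mice each, but by very different factors. The clusters were made from expression values of the same nuclei, these genes included. Differences between clusters are therefore a description and not a test. CPM here are counts of a gene over all counts of a mouse in a cluster, times 1000000, and are not scaled by gene length, so each gene is compared only with itself. Levels are means over mice, while each fold is a ratio of counts pooled over the 32 mice, which can differ from the ratio of the means. Mbp, the basic protein that compacts myelin, stood at 7380 ± 565 CPM (SD, n = 32 mice) in oligodendrocytes and at 899.8 ± 81.1 in Drd1+ neurons. Mobp, a second basic protein of the compact sheath, stood at 1781 ± 407 CPM in oligodendrocytes, 10.2-fold above Drd1+ neurons, against 8.25-fold for Mbp. Cnp, a phosphodiesterase of uncompacted myelin, was 13.3-fold higher, at 282.9 ± 64.7 CPM in oligodendrocytes.

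The other 6 genes were separated more widely, by 88.0-fold or more. Mog, an immunoglobulin-type protein of the outermost myelin surface, was 211-fold higher at 1175 ± 245 CPM. Mag, an adhesion protein facing the axon, was 135-fold higher at 1125 ± 234 CPM. Cldn11, the claudin of myelin tight junctions, was 93.4-fold higher at 841.4 ± 248 CPM. Opalin, a transmembrane glycoprotein of oligodendrocytes, was 91.7-fold higher at 369.3 ± 96.3 CPM, and Mal, a raft proteolipid of membrane sorting, was 88.0-fold higher at 1318 ± 344 CPM. Aspa, the enzyme that splits N-acetylaspartate, showed the widest separation of the 9, 290-fold, at 892.2 ± 212 CPM.

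**Figure D1:**
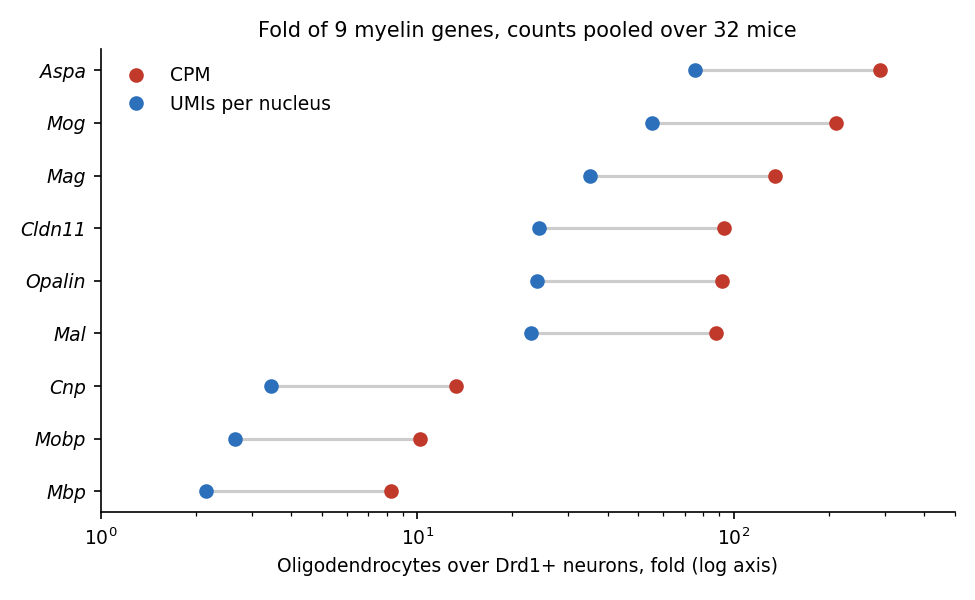
Fold of oligodendrocytes over Drd1+ neurons for each gene on a log axis, from counts pooled over 32 mice, as CPM (red) and as UMIs per nucleus (blue). Mbp, Mobp and Cnp lie between 8.25- and 13.3-fold in CPM, and the other 6 genes lie at 88.0-fold or above.

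Drd1+ nuclei were several times deeper than oligodendrocyte nuclei, with a median of 6505 against 1640 UMIs, so the same comparison was made in UMIs per nucleus. On that scale Mbp was only 2.15-fold higher in oligodendrocytes, Mobp 2.65-fold and Cnp 3.46-fold. Mog was still 55.1-fold higher and Aspa 75.7-fold. The average Drd1+ nucleus thus carried 46.5% of the Mbp UMIs of an oligodendrocyte nucleus, 37.7% of its Mobp UMIs and 28.9% of its Cnp UMIs. Of the Mog UMIs it carried 1.81%, and of the Aspa UMIs 1.32%.

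Mbp and Mobp were present in nuclei of every cluster, and pooled over batches their amount per nucleus varied less between clusters outside the oligodendrocyte lineage than depth did. Over those 16 clusters, Mbp ranged from 4.77 UMIs per nucleus in Sst+ interneurons to 6.91 in astrocytes. Median depth in the same clusters ranged from 1432 UMIs in macrophages to 8370.5 in Chat+ interneurons. Mobp ranged from 0.897 to 1.36 UMIs per nucleus across those clusters. Per 100 Mbp UMIs there were 17.5 to 21.1 Mobp UMIs (median 19.4), again pooled over batches. Mog did not keep such a steady ratio. Per 100 Mbp UMIs it was at 0.60 in Drd1+ neurons, 0.93 in astrocytes, 1.36 in macrophages and 1.75 in the cluster Unknown. For Mbp, batch 3 was less even. There Mbp ran from 0.818 UMIs per nucleus in Chat+ interneurons (22 nuclei), 1.02 in Sst+ interneurons and 1.83 in Nxph1+ interneurons to 4.31 in Drd1+ neurons and 4.39 in astrocytes, leaving out a cluster of 2 nuclei. In batches 1, 2 and 4 the same clusters lay between 5.29 and 7.57. In CPM, over clusters read in at least 3 mice, Mbp varied from 3316 ± 577 in macrophages to 705.6 ± 109 in Slc17a7+ neurons, and neighbouring clusters in that order mostly differed by less than the larger SD over mice.

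**Figure D2:**
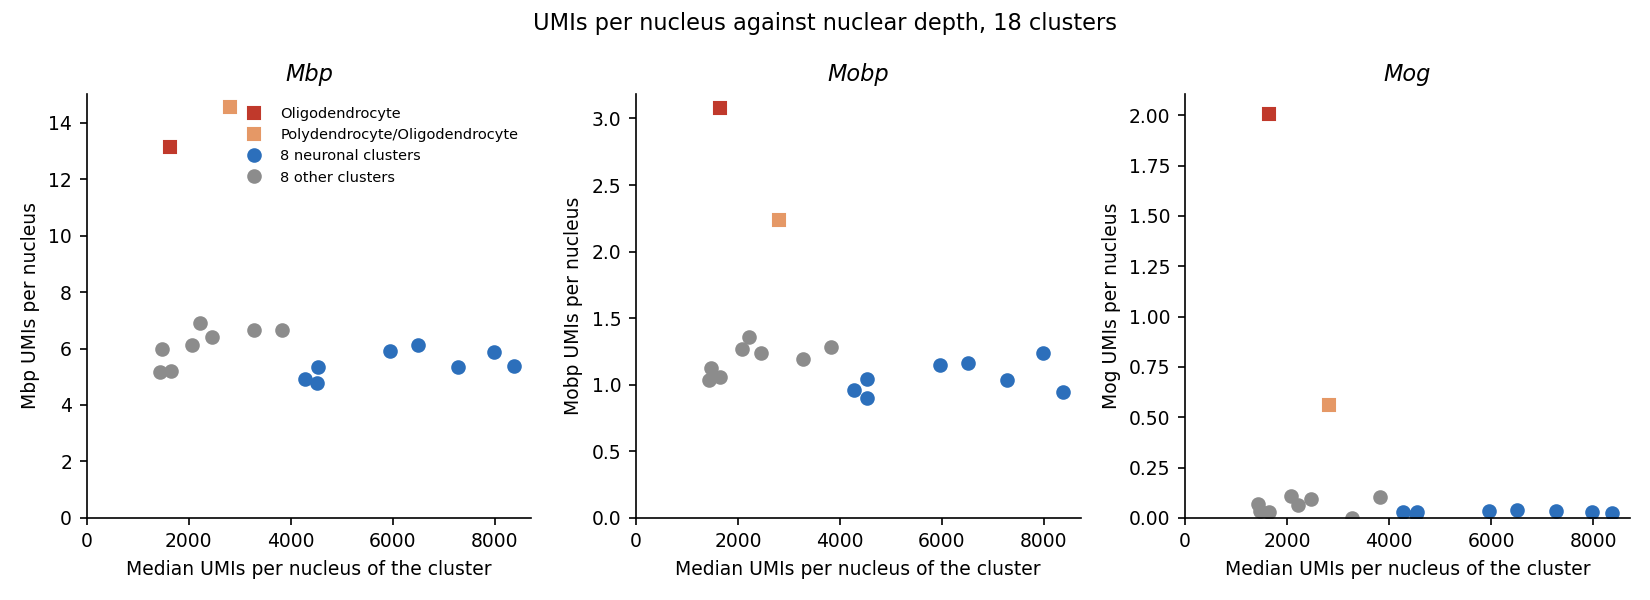
UMIs per nucleus of Mbp, Mobp and Mog against the median UMIs per nucleus of each of the 18 clusters, pooled over mice. Mbp lies between 4.77 and 6.91 in the 16 clusters outside the oligodendrocyte lineage (circles) at every depth, and at 13.1 and 14.5 in the clusters Oligodendrocyte and Polydendrocyte/Oligodendrocyte (squares).

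Within Drd1+ neurons, Mbp UMIs per nucleus were higher in deeper nuclei. Nuclei were split into 4 equal groups by depth within each batch. Those of the shallowest group (median 4476 UMIs) held 4.61 Mbp UMIs each, and those of the deepest (median 9228 UMIs) held 7.86. In CPM the order was the reverse, 1107 in the shallowest and 791.2 in the deepest group. In oligodendrocytes, Mbp UMIs rose with depth from 8.48 to 19.3 per nucleus while CPM stayed between 7259 and 7766. Counts of Mbp and Mobp in neuronal nuclei are given as measured, and the share of free RNA, of attached myelin, of golli transcripts or of other expression in them was not tested.

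The make-up of the 9 genes' counts differed between oligodendrocytes and neurons. Over the 8 neuronal clusters pooled, 79.2% of 247148 myelin-gene UMIs were Mbp (Wilson 95% interval 79.1% to 79.4%) and 15.3% were Mobp. In oligodendrocytes, 49.6% of 319837 were Mbp (49.4% to 49.7%) and 11.6% were Mobp. Intervals here and below cover counting error only. Batches differed less than the 2 kinds of nuclei did, with Mbp at 78.0% to 79.8% in neurons and at 40.9% (batch 3) to 53.1% (batch 1) in oligodendrocytes. Subtracting the mean UMIs of Drd1+ nuclei from those of oligodendrocyte nuclei, batch by batch, left a surplus of which 36.7% ± 5.25 (SD, n = 4 batches) was Mbp and 10.1% ± 1.21 was Mobp. In that surplus Mal made up 11.6% ± 1.74, Mog 10.6% ± 1.21, Mag 10.0% ± 1.25 and Aspa 8.42% ± 0.651.

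**Figure D3:**
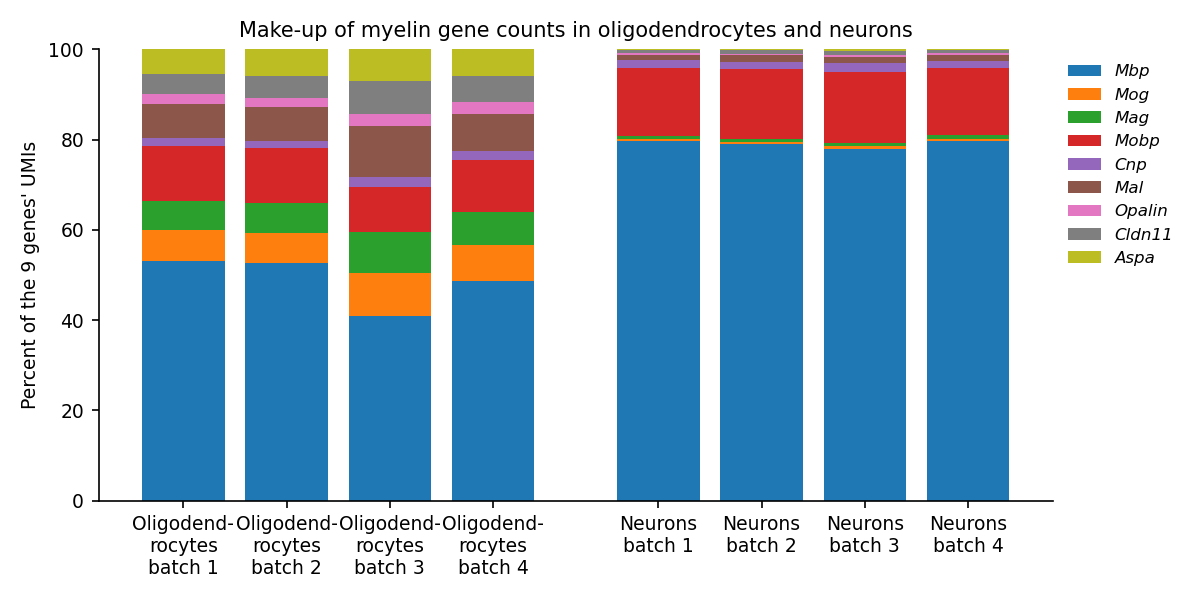
Percent of the UMIs of the 9 genes that fell to each gene, in oligodendrocytes and in the 8 neuronal clusters, for each batch. Neurons are 78.0% to 79.8% Mbp in all 4 batches, and oligodendrocytes are 40.9% Mbp in batch 3 and 48.7% to 53.1% in the others.

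A few clusters departed from the common pattern for single genes. Endothelium, named for cells that line vessels, held 1.34 Mal UMIs per nucleus over 851 nuclei, 13.6% of its myelin-gene counts against 1.30% in neurons. Mal there was at 247.1 ± 102 CPM (n = 29 mice), with 325.3 CPM in batch 2 and 114.0 in batch 3. The 132 nuclei of the cluster Fibroblast held 0.273 UMIs each of Aspa and of Cldn11, 36 counts of each gene and more per nucleus than any other cluster of the 16. These counts came unevenly from the batches, 22 of the Cldn11 counts and 15 of the Aspa counts from batch 4.

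The cluster Polydendrocyte/Oligodendrocyte held fewer UMIs per nucleus than oligodendrocytes for 7 of the 9 genes, lowest in proportion for Aspa, Mal, Mog and Opalin, and a wide spread of Mbp. Its mean for Mbp stood at 14.5 UMIs per nucleus there, Mag at 1.40 and Cldn11 at 1.12, against 13.1, 1.91 and 1.43 in oligodendrocytes. Mal was at 0.348, Mog at 0.561, Opalin at 0.191 and Aspa at 0.180 UMIs per nucleus, against 2.24, 2.01, 0.633 and 1.58. Mobp was at 2.24 against 3.08, and Cnp at 0.537 against 0.485. A minority of nuclei carried the Mbp mean: its median nucleus held 6 Mbp UMIs, with a lower quartile of 2 and a 95th percentile of 58, while oligodendrocytes had a median of 12 and a lower quartile of 8. Nuclei of this cluster were deeper, with a median of 2813 UMIs against 1640 in oligodendrocytes, and in CPM all 9 genes were lower in it. Mbp was at 3786 ± 1522 CPM there and 7380 in oligodendrocytes. For Mag the values were 378.1 ± 262 and 1125, for Cldn11 307.2 ± 238 and 841.4, and for Cnp 151.0 ± 91.5 and 282.9. The 27 mice of the cluster ranged from 1579 to 7311 Mbp CPM.

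For the share of nuclei with at least 1 UMI of a gene, nuclei were first thinned to 1000 UMIs each, which left out 986 oligodendrocyte and 10 Drd1+ nuclei. Mbp was then detected in 99.8% of oligodendrocyte and 54.1% of Drd1+ nuclei, and Mobp in 77.6% and 15.5%. Mog was detected in 64.8% and 0.533%, Aspa in 54.4% and 0.299%, and Cnp in 23.2% and 2.06%. Without thinning, Mbp was detected in 94.7% of Drd1+ nuclei and Mog in 3.20%. Shares of oligodendrocyte nuclei with a UMI were above those of Drd1+ neurons, cells that do not make myelin, for all 9 genes.

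Between strains, 4 of the 9 genes changed in oligodendrocytes: Mobp, Aspa, Cldn11 and Opalin. The strain term of edgeR's quasi-likelihood model, with batch in the model, called them at adjusted p of 1.39e-15, 9.75e-14, 1.93e-08 and 0.000671. By the same term, 34.8% of the 9082 genes tested in oligodendrocytes were called, so 4 of 9 is near the background. Mal (adjusted p = 0.0845), Mag (0.333), Cnp (0.676), Mog (0.803) and Mbp (0.896) did not pass. Strain means of the median gene tested spanned 0.71 on the log2 scale from lowest to highest, and those of the median myelin gene spanned 0.55. These sets were not matched for expression level, so the spans do not rank myelin genes against other genes. Values between strains below are CPM after TMM scaling of each mouse's library. Counts of all strains rest on the same reference build, mm10 (GRCm38), and the part of mapping to it in strain differences was not tested.

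Mobp was highest in CAST/EiJ, a strain from wild mice of another subspecies, at 2655 ± 249 CPM (SD, n = 4). The mice of CAST/EiJ from batches 1 to 4 had 2866, 2819, 2319 and 2614 CPM. The next strain, WSB/EiJ, had 1843, 1879, 2429 and 1946 CPM. In PWK/PhJ the values were 2063, 1838, 2005 and 1744, and in C57BL/6 they were 1967, 1857, 1876 and 1767. Of the 28 other mice only the WSB/EiJ mouse of batch 3 reached the range of CAST/EiJ.

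At the low end, NZO/HlLtJ mice had 1445, 1371, 1327 and 1496 Mobp CPM. A/J mice had 1598, 1664, 1139 and 1573 CPM, NOD/ShiLtJ mice 1492, 1543, 1543 and 1523, and 129S1/SvImJ mice 1969, 1736, 1426 and 1874. CAST/EiJ exceeded WSB/EiJ by more than the SD of either, and every later pair of neighbours in the order of strain means differed by less than the larger SD. From highest to lowest strain the ratio was 1.88.

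Against the mean of the other 7 strains, Mobp was called in 5 strains. It rose in CAST/EiJ by 0.65 ± 0.06 on the log2 scale (SE; adjusted p = 4.27e-14), where 9.45% of genes were called higher. It fell in NZO/HlLtJ by 0.40 ± 0.07 (adjusted p = 1.36e-05; 3.18% of genes lower), in A/J by 0.30 ± 0.07 (0.00105; 2.84% lower) and in NOD/ShiLtJ by 0.27 ± 0.07 (0.00433; 3.85% lower). The call in NOD/ShiLtJ was lost without batch 1, at a log2 difference of -0.23. A rise of 0.20 in WSB/EiJ (adjusted p = 0.0356; 5.86% of genes higher) was lost without batch 3, where it was 0.06, without batch 4, where it was 0.22, and without batch in the model, at 0.20.

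**Figure D4:**
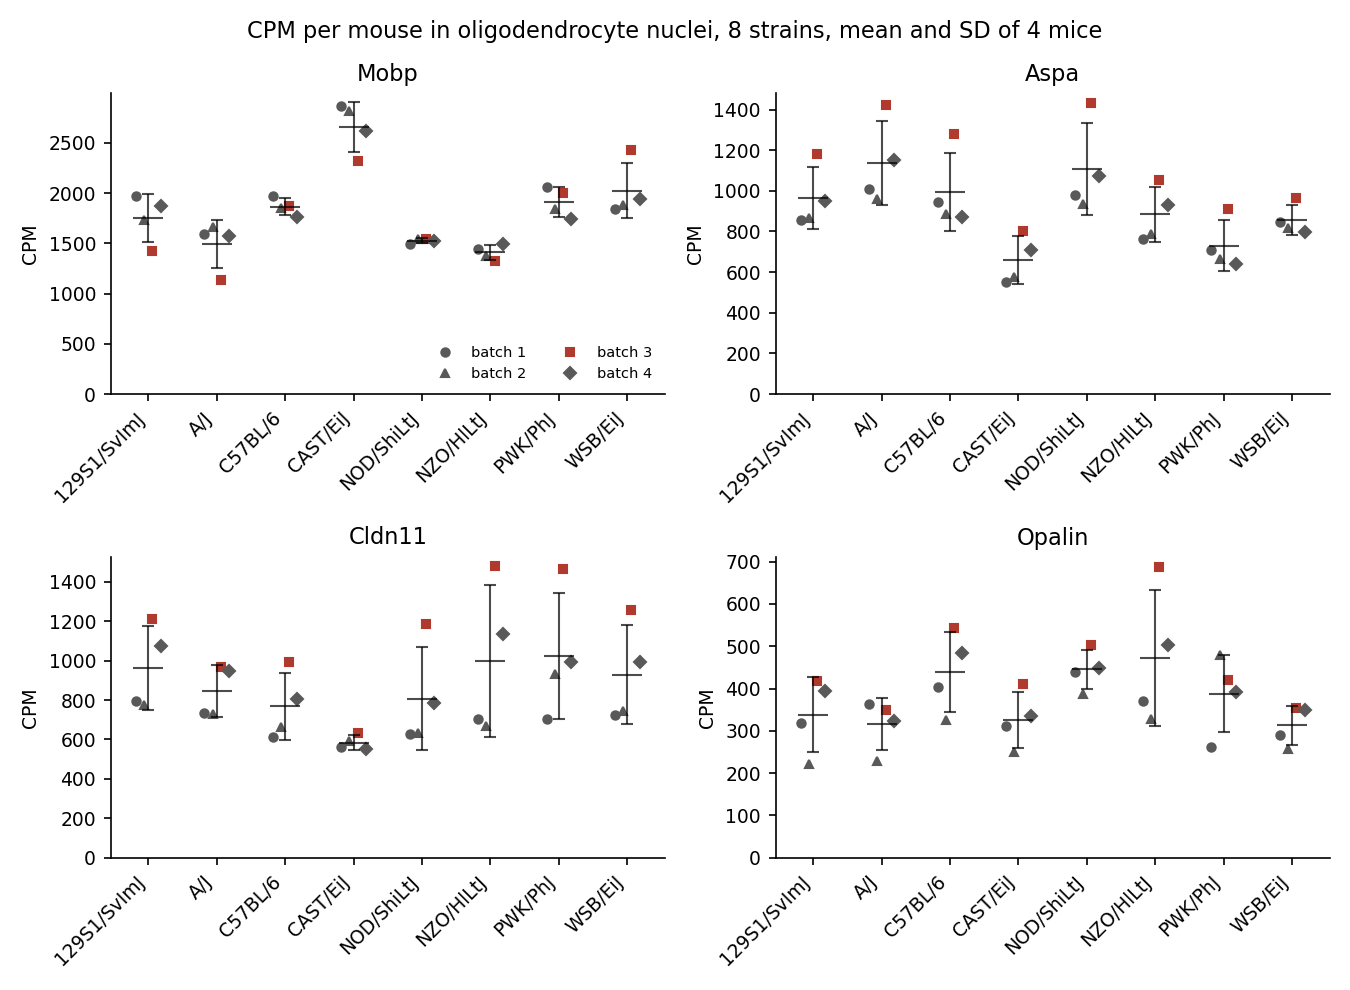
TMM-scaled CPM of Mobp, Aspa, Cldn11 and Opalin in oligodendrocyte nuclei of each mouse, with bars for mean and SD of the 4 mice of a strain and red squares for batch 3. Mobp is highest in CAST/EiJ (2655 ± 249), the strain in which Cldn11 (584.3 ± 37.7) and Aspa (659.6 ± 116) are lowest.

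Aspa was lowest in CAST/EiJ and PWK/PhJ and highest in A/J and NOD/ShiLtJ. CAST/EiJ mice of batches 1 to 4 had 551.7, 577.8, 800.8 and 708.3 CPM, and PWK/PhJ mice had 709.7, 662.7, 911.4 and 638.3. A/J mice had 1011, 961.4, 1421 and 1154 CPM, and NOD/ShiLtJ mice 979.2, 937.3, 1434 and 1071. The 4 mice of A/J lay above all 4 of CAST/EiJ and of PWK/PhJ, and in each of these strains the mouse of batch 3 was the highest. A/J exceeded CAST/EiJ 1.72-fold.

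In the contrasts, Aspa fell by 0.52 ± 0.07 in CAST/EiJ (adjusted p = 5.59e-09) and by 0.35 ± 0.07 in PWK/PhJ (8.54e-05), with 7.58% and 8.32% of genes called lower in these strains. It rose by 0.38 ± 0.06 in A/J (3.06e-06) and by 0.33 ± 0.06 in NOD/ShiLtJ (5.73e-05), where 5.16% and 5.55% of genes were called higher. The call in NOD/ShiLtJ was lost without batch in the model, at a log2 difference of 0.34. In the order of strain means, only WSB/EiJ and PWK/PhJ were neighbours that differed by more than the larger SD.

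Cldn11 was low in CAST/EiJ, at 560.0, 591.7, 634.4 and 551.1 CPM in batches 1 to 4, a mean of 584.3 ± 37.7. The next strain, C57BL/6, had 611.4, 664.5, 994.5 and 803.4 CPM. The fall in CAST/EiJ was 0.56 ± 0.08 (adjusted p = 4.40e-08), and its mice overlapped the other 28, which ranged from 611.4 to 1480 CPM. PWK/PhJ was highest, at 703.1, 932.8, 1464 and 992.7 CPM, a rise of 0.27 ± 0.08 (0.00572; 7.39% of genes higher) that was not called without batch 2, at 0.21, or without batch in the model, at 0.28. NZO/HlLtJ mice spread from 670.1 to 1480 CPM, and their rise of 0.22 ± 0.07 (0.0482; 5.01% of genes higher) was lost without batch 1, 3 or 4, with no filter on low counts and without batch in the model. Without batch in the model the strain term of Cldn11 was not called (adjusted p = 0.262).

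Opalin was the least secure of the 4. NZO/HlLtJ mice had 371.5, 327.8, 687.8 and 502.5 CPM and rose by 0.36 ± 0.10 (adjusted p = 0.0234; 5.01% of genes higher), the only strain called. That contrast was lost without batch 3, at 0.23, without batch 4, at 0.35, and without batch in the model, at 0.39. WSB/EiJ mice, lowest in mean, had 290.8, 258.1, 352.8 and 349.5 CPM, overlapping those of NZO/HlLtJ. No neighbours in the order of the 8 strains differed by more than the larger SD. The strain term was lost without batch 3 (adjusted p = 0.102), without batch 4 (0.0702) and without batch in the model (0.130). Opalin also missed the threshold in UMIs per nucleus with strain permuted within batch (adjusted p = 0.0595).

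Depth and markers of other cells were also read in these libraries. Median depth of oligodendrocyte nuclei, averaged over mice, was 1482 (PWK/PhJ) to 1673 (129S1/SvImJ) UMIs. Summed CPM of 4 neuron markers (Rbfox3, Snap25, Syt1, Meg3) were 245.9 to 303.1 over the strain means, and those of 5 astrocyte markers were 611.5 to 841.6, with CAST/EiJ at 285.1 and 746.8. In 2 other lists CAST/EiJ was at an end of the order. Its 4 precursor markers summed to 31.3 ± 6.58 CPM, the lowest, against 34.1 (NZO/HlLtJ) to 56.9 ± 8.68 (WSB/EiJ), and its 5 macrophage markers to 134.7 ± 17.2, the highest, against 104.7 to 120.1. No marker of the 4 lists was at 0 in any strain, and their part in the strain differences was not tested. In UMIs per nucleus, all 13 called contrasts kept their direction, but the rise of Cldn11 in PWK/PhJ shrank from 1.21-fold in CPM to 1.08-fold. Aspa in PWK/PhJ moved from a ratio of 0.787 to the other strains in CPM to 0.695, and PWK/PhJ had the lowest depth. CAST/EiJ oligodendrocytes held 4.51 Mobp, 0.982 Cldn11 and 1.10 Aspa UMIs per nucleus, against 2.88, 1.50 and 1.59 in the other 7 strains.

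The 5 genes that did not pass had overlapping strains. Mbp strain means ran from 7364 ± 647 (WSB/EiJ) to 7852 ± 487 (129S1/SvImJ), a ratio of 1.07, and Mog means from 1147 ± 151 (A/J) to 1264 ± 342 (129S1/SvImJ). Mag ran from 1059 to 1247 CPM and Cnp from 262.6 to 324.2. Strain SDs over 4 mice were 151.1 to 399.7 for Mag and 40.1 to 115.2 for Cnp. Mal ran from 1129 ± 84.0 in CAST/EiJ to 1650 ± 735 in NZO/HlLtJ, whose 4 mice had 1301, 1054, 2712 and 1531 CPM. Mal was called by DESeq2 (adjusted p = 0.0115), without batch 2 (2.77e-05) and with no filter on low counts (2.06e-06).

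In neurons, few of the 9 genes were called between strains. Of 9 genes tested in Drd1+ neurons 0 were called by edgeR, and 0 had an unadjusted p under 0.05. DESeq2 also called 0. Of all 13431 genes tested there, 61.7% were called, a share not matched for expression level. Over 32 mice the counts of the 9 ran from 322 (Aspa), 408 (Opalin) and 561 (Mog) to 17854 (Mobp) and 94042 (Mbp). Small strain differences in the genes with few counts could be missed. Mbp in Drd1+ neurons ran from 854.5 ± 105 CPM (129S1/SvImJ) to 994.5 ± 56.0 (PWK/PhJ). Drd2+ nuclei held similarly few counts, such as 374 for Opalin and 458 for Mog, against 77825 for Mbp. Of 8 genes tested in Drd2+ neurons 1 was called, Mbp (adjusted p = 0.0173), against 55.9% of all genes, with strain means of 905.8 to 1071 CPM. That call was lost without batch 1 (0.0787), without batch 3 (0.231) and without batch in the model (0.552). It was also lost with no filter on low counts, and in UMIs per nucleus with strain permuted within batch (adjusted p = 0.384).

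In astrocytes 0 of 8 and in macrophages 0 of 4 genes tested were called by edgeR, with 1 and 0 at an unadjusted p under 0.05 and 0 by DESeq2, against 21.5% and 24.8% of all genes. Mal in astrocytes was the one with an unadjusted p under 0.05 (adjusted p = 0.0954). Apart from Mbp and Mobp the genes had few counts, such as 306 for Mog in astrocytes and 263 for Mag in macrophages. The shares of all genes are not matched for expression level. Polydendrocyte/Oligodendrocyte gave 0 of 7, with 0 at an unadjusted p under 0.05 and 0 by DESeq2, against 1.24% of all genes. Without batch 3, 3 of its genes were called, but the share of all genes called at that setting was not taken.

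Whether a strain difference in oligodendrocytes was matched in neurons was tested as an interaction of strain and cluster over both libraries of each mouse. Free RNA of a batch is drawn from a pool shared by all 8 strains, but its CPM in Drd1+ nuclei could still differ with nuclear depth. The interaction cannot tell shared free RNA in Drd1+ nuclei apart from a strain effect confined to oligodendrocytes. Mobp was called (adjusted p = 4.92e-05), as were 16.9% of the 13943 genes tested. Opalin (0.0603), Mal (0.106) and Cldn11 (0.170) missed the threshold, and the other 5, Aspa (0.956) among them, had adjusted p of 0.920 or above. A missed threshold does not show that a strain difference was matched in neurons. Aspa had only 322 counts in Drd1+ neurons over 32 mice. On simulated data with the same spread for every gene, the interaction recovered 29.4% of 2-fold changes. Mobp in Drd1+ neurons had strain means of 158.4 ± 12.8 (129S1/SvImJ) to 188.2 ± 19.9 CPM (PWK/PhJ), with CAST/EiJ at 171.3 ± 21.1. The log2 ratio of oligodendrocytes to Drd1+ neurons was 3.96 ± 0.07 in CAST/EiJ, with mice from 3.86 to 4.01. WSB/EiJ was next, at 3.59 ± 0.29, and its highest mouse, at 3.99, lay inside the range of CAST/EiJ. The lowest ratios were 3.02 ± 0.11 in NZO/HlLtJ and 3.12 ± 0.12 in A/J. Subtracting the UMIs per nucleus of Drd1+ neurons of the same mouse left 3.44 ± 0.61 Mobp UMIs per oligodendrocyte nucleus in CAST/EiJ and 1.27 ± 0.23 in NZO/HlLtJ.

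**Figure D5:**
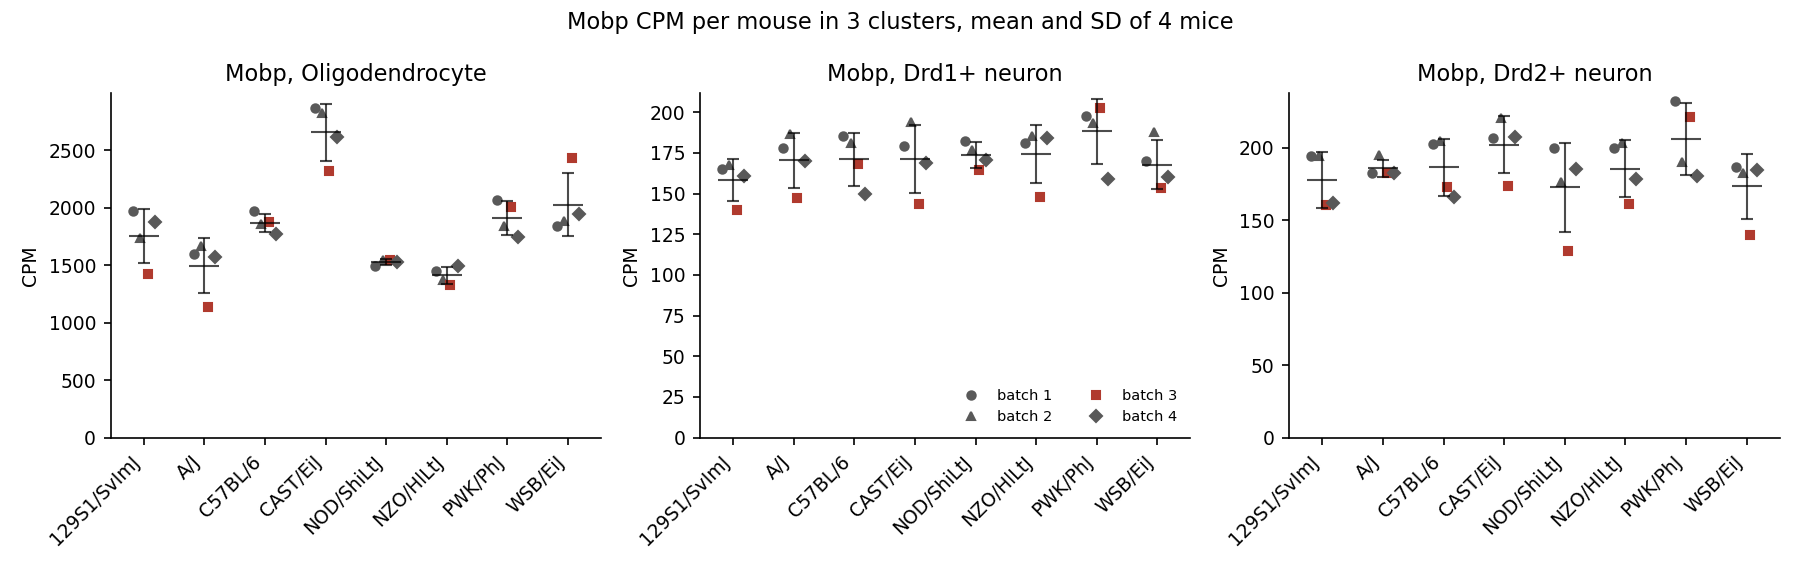
TMM-scaled Mobp CPM of each mouse in oligodendrocytes, Drd1+ neurons and Drd2+ neurons, with bars for mean and SD of 4 mice per strain and each panel on its own axis from 0. CAST/EiJ stands at 2655 ± 249 in oligodendrocytes and at 171.3 ± 21.1 in Drd1+ neurons, where the strain means lie between 158.4 and 188.2.

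Between batches, the model's batch term in oligodendrocytes called 8 of 9, all but Mobp (adjusted p = 0.541), against 17.8% of genes. Batch 3, the shallowest, had 1563 ± 136 Mog CPM (SD, n = 8 mice) against 969.1 to 1238 in the other batches, and 1496 ± 135 Mag CPM against 974.0 to 1170. Cldn11 was at 1149 CPM in batch 3 against 681.9 to 910.5, and Aspa at 1131 against 811.9 to 889.9. Mbp went the other way, at 6726 ± 326 CPM in batch 3 against 7630 to 8220. Without batch 3, 4 of the 9 genes were called, but the share of all genes called at that setting was not taken.

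In neurons the batch term called Mbp and Mobp alone, 2 of 9 in Drd1+ neurons against 24.8% of genes and 2 of 8 in Drd2+ neurons against 21.7%. These 2 genes also had the most counts, 94042 and 17854 in Drd1+ neurons, against 2161 for Cnp, the next. Mbp in Drd1+ neurons was at 801.9 CPM in batch 3 and at 910.2 to 957.3 in the others, or 4.33 against 6.58 to 6.69 UMIs per nucleus. Both genes lost these calls without batch 3. In UMIs per nucleus of oligodendrocytes, batch 3 and batch 4 were alike for Mog (2.18 and 2.29) and Mag (2.09 and 2.16), while Mbp was at 9.38 in batch 3 and 13.5 to 14.4 in the others. Oligodendrocyte nuclei of batch 3 had a median depth of 1305 UMIs, averaged over mice, against 1673 to 1774, and their summed neuron markers were at 210.5 CPM against 273.5 to 347.2. Summed astrocyte markers were at 477.1 ± 89.0 CPM in batch 3 against 666.8 to 891.0, and 0 markers of either list were at 0. The part of depth and of these markers in the batch differences was not tested.

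Other genes of the myelin programme were read from lists of the pathway. Of 18 further genes of the myelin membrane, 14 were called by the strain term in oligodendrocytes, against 34.8% of all genes, and their contrasts against the other strains were called 19 times higher and 17 times lower. Over all genes, 6.08% of such contrasts were called higher and 4.42% lower. The counts of every list below stand against these shares and the same 34.8%. All lists, the 18 genes included, were chosen with earlier results of these data known. They were not matched for expression level, so their counts do not rank them against other genes. The strongest of the 18 was Ninj2, an adhesion protein gene, at 479.6 ± 64.0 CPM in C57BL/6 and 32.6 ± 9.16 in CAST/EiJ. Cd59a, a complement inhibitor, was at 94.5 ± 31.0 CPM in WSB/EiJ and 18.1 ± 5.96 in C57BL/6, and the tetraspanin Cd9 was at 498.5 ± 133 in PWK/PhJ and 241.5 ± 58.6 in C57BL/6.

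All 11 listed oligodendrocyte transcription factors were called (34.8% over all genes), in 17 contrasts higher and 14 lower. Zfp488 had 79.1 ± 17.8 CPM in CAST/EiJ, against 2.32 ± 3.10 in A/J. Sox8 was 2.56-fold and Sox10, a master regulator of the lineage, 1.62-fold higher in the top than in the bottom strain, which was CAST/EiJ for Sox10 (229.0 ± 66.8). Myrf, the factor that switches on myelin genes, was also among the called.

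Among genes of myelin lipid synthesis, 6 of 12 were called, with 7 contrasts higher and 6 lower. Ugt8a, which makes galactosylceramide, ran from 832.9 ± 161 CPM in WSB/EiJ to 1380 ± 81.0 in PWK/PhJ. Fa2h, which hydroxylates myelin fatty acids, spanned 1.43-fold, as did the elongase Elovl7. Of 10 genes of the N-acetylaspartate pathway, in which Aspa acts, 6 passed the filter on low counts and 4 were called, with 4 contrasts higher and 5 lower. Folh1, a peptidase that releases N-acetylaspartate, had 275.1 ± 41.0 CPM in 129S1/SvImJ and 107.4 ± 26.6 in CAST/EiJ. Acss2, which charges acetate to acetyl-CoA, was at 91.8 ± 17.0 in A/J, where Aspa was also highest, and at 44.3 ± 4.32 in NZO/HlLtJ. The receptor gene Grm3 was 1.47-fold higher in 129S1/SvImJ than in NOD/ShiLtJ.

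Of 10 genes supporting mature oligodendrocytes 8 were called, in 14 contrasts higher and 11 lower. Car2, carbonic anhydrase, was at 1016 ± 156 CPM in NOD/ShiLtJ and 430.1 ± 58.7 in CAST/EiJ, Qdpr at 466.5 ± 59.1 in NZO/HlLtJ and 187.5 ± 39.7 in WSB/EiJ, and Trf, transferrin, spanned 1.64-fold. Of 13 genes of newly formed oligodendrocytes and precursors, 7 passed the filter and 5 were called, with 8 contrasts higher and 7 lower. Bcas1 was at 819.0 ± 34.2 CPM in NZO/HlLtJ and 462.8 ± 77.6 in WSB/EiJ, Itpr2 was 6.36-fold and Lhfpl3 2.79-fold higher in the top than in the bottom strain.

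Across the 18 clusters, other genes were ranked by how closely their level followed the mean of the 9. Likeness was Pearson's r between log2(CPM + 1) over pooled cluster counts, among 3665 other genes of at least 50 CPM in oligodendrocytes. Clusters share libraries and depth, so r is a description. It was 0.96 for Ermn, a cytoskeletal protein of myelin, and 0.93 to 0.95 for Galnt6, 1700047M11Rik, Prr5l, Anln, A230001M10Rik, Traf6, Cdh19 and C030029H02Rik. Each of the 9 had r of 0.86 (Opalin) to 0.97 (Mag) with their own mean, to which it contributes.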

How the data were processed

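Counts were whole UMI counts per gene and barcode, deposited by the authors as 4 matrices, 1 per batch, with no normalization. Per the submitters' processing notes, the build was mm10 (GRCm38) and tools included bcl2fastq 2.20.0.422 and Cell Ranger ARC 2.0.0. The deposited table gives each barcode's Demuxlet strain, filters and cluster as categories (other than a measurement), used unchanged; peak positions deposited by the authors are likewise no measurement. No further filter on nuclei or doublet caller was applied.

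Counts were summed per mouse (batch by strain) and cluster; libraries under 10 nuclei were left out. Genes were filtered with filterByExpr, scaled by TMM and fitted with strain and batch in edgeR 4.0.16 (R 4.3.3; DESeq2 1.42.0 as an alternative), with Benjamini-Hochberg adjustment over all genes of a cluster and calls at an adjusted p under 0.05. Batch, given by the labels, paired the mice as the replicate block. Contrasts set each strain against the average of the remaining 7; the interaction of strain and cluster kept the mouse as a block. On simulated data 81.5% of 200 genes changed 2-fold in 1 strain of oligodendrocytes were recovered, among 9082 genes, and 4.12% of calls were false. For the interaction 29.4% were recovered, in a simulation that gave every gene the same spread. The strain simulation used each gene's own estimated spread, so the recovered shares are not comparable.

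Alternatives were DESeq2, no count filter, no block, at least 30 nuclei, leaving out each batch, other thinning depths and pooled counts. UMIs per nucleus with strain permuted within batch (100000 resamples, upper tail of F, adjusted over 27 tests) was added after seeing the data. Named genes were the 9, up to 3 called genes of at least 10 CPM per list by largest F, and the 10 most alike genes, of which 1 is not reported here. Members and lists were chosen with earlier results of these data known. Each mouse is a separate animal. Oligodendrocyte libraries held 165465 to 1883033 counts per mouse, which limits precision.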

Additional observations from a re-analysis of the deposited data

Results flagged for a closer look

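Mbp in NZO/HlLtJ oligodendrocytes was at 6483 CPM in the mouse of batch 3, while the other 3 mice of the strain lay at 7940 to 8120 CPM, a gap large for the group's range by Dixon's test. It was the 1 such group among 72 of 4 mice (9 genes in 8 strains), and chance alone flags about 5% of groups. Mbp was lower in batch 3 than in the other batches in oligodendrocytes of all strains together.

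The strain effect on Mobp differed between oligodendrocytes and Drd1+ neurons by the interaction term of edgeR (adjusted p = 4.92e-05), with strain means spanning 1.88-fold in the former and 1.19-fold in the latter. The same term called 16.9% of the 13943 genes tested. Free RNA shared within a batch would reach Drd1+ nuclei of all strains, and its share in their counts was not tested.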

How the results depend on the processing

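The strain term called Mobp and Aspa in oligodendrocytes under all alternatives, and none of the 13 called contrasts reversed. Shares of all genes called were taken in the main fits only, so counts of calls under the alternatives stand without a background. Without the replicate block, 2 of 9 genes were called in oligodendrocytes instead of 4, 8 contrasts instead of 13 (those lost were Aspa in NOD/ShiLtJ, Cldn11 in NZO/HlLtJ and PWK/PhJ, Mobp in WSB/EiJ and Opalin in NZO/HlLtJ), and 0 genes instead of 1 in Drd2+ neurons; other counts of calls did not move with the block. With no filter on low counts, calls were 5 in oligodendrocytes, Mal having been added, 4 in Polydendrocyte/Oligodendrocyte, 1 in astrocytes, 0 in Drd2+ neurons and 2 for the interaction, Mal having joined Mobp. With UMIs per nucleus, chosen after seeing the data, 3 genes were called in oligodendrocytes (Mobp and Aspa at adjusted p = 0.00027 each, Cldn11 at 0.0224) and 0 in Drd2+ neurons.

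Leaving out 1 batch in turn, the batch term called 4 to 8 genes in oligodendrocytes, 0 to 2 in Drd1+ and 0 to 2 in Drd2+ neurons, the lowest without batch 3 each time. The strain term called 0 to 2 in Drd2+ neurons, 0 to 2 in astrocytes, 0 to 1 in macrophages and 0 to 3 in Polydendrocyte/Oligodendrocyte, and the interaction 1 to 2. Batch 3 alone had 40.9% Mbp in oligodendrocytes and 78.0% in neurons. Thinned to 500 or 2000 UMIs, or not thinned, Mbp was detected in 35.2%, 75.6% or 94.7% of Drd1+ nuclei. Mog there reached 1.11% at 2000 UMIs and 3.20% unthinned, and in oligodendrocytes 41.9%, 83.4% and 79.0% at 500, at 2000 and unthinned. Thinning to 2000 kept 3311 oligodendrocyte nuclei and left out 8755. Mbp in oligodendrocytes was at 96.6% when thinned to 500. These shares move with depth by construction; the cause of the other changes was not tested. The requirement of at least 30 nuclei left no fit for Polydendrocyte/Oligodendrocyte.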
